A study of Mus musculus with 6 samples.

Results

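The dynein light chain genes were examined in RNA sequencing of hematopoietic stem cells (HSCs) that lack the ribosomal protein Rpl22. The family as taken here has 8 of the 34573 genes counted, by symbol: Dynlrb1, Dynlt1a, Dynlt1b, Dynlt1c, Dynlt1f, Dynlt3, Dynll1 and Dynll2. Further light chain genes are among the companion genes below. The family was chosen by the difference between Rpl22-/- and Rpl22+/+ HSCs measured in these same libraries. The differences of its members between the genotypes are therefore given as a description, with no p-value for any member. The HSCs were Sca-1+ c-Kit+ CD48-CD150+ cells sorted from lineage-depleted bone marrow. They came from young adult mice on a C57BL/6 background, either without Rpl22 (Rpl22-/-, labelled Rpl22 KO) or with it (Rpl22+/+, labelled Rpl22 WT). Each genotype had 3 libraries, numbered 1 to 3. Whether a library came from a single mouse or from pooled mice is not given in the sources used here, so the p-values below measure only the spread between these libraries, which may be technical.

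Genes received 9321123 to 13385850 reads in each library. Rpl22 itself, a protein of the large ribosomal subunit, was counted 449 to 546 times without the gene and 5031 to 7001 times with it, and its level was lower in Rpl22-/- HSCs by a log2 fold change of -3.75 ± 0.11 (SE, n = 3 per genotype; edgeR's quasi-likelihood test, adjusted p = 2.97e-12). All 10 HSC markers had reads, and their summed level was 2579 to 2846 CPM (counts scaled to a common library size) in Rpl22-/- and 2757 to 2796 CPM in Rpl22+/+ HSCs. Of these, Fgd5 alone passed the test, and it was lower in Rpl22-/- HSCs. Megakaryocyte markers moved with the genotype: 4 of 5 tested (Pf4, Gp9, Gp1bb and Itga2b) were higher in Rpl22-/- HSCs, and the 6 listed summed to 742 to 921 CPM against 502 to 667 CPM, with Gp6 at 0 in every library. The 7 neutrophil markers summed to 33.0 to 139 CPM in Rpl22-/- and 9.55 to 29.5 CPM in Rpl22+/+ libraries, with Camp passing the test. The highest sum was that of Rpl22-/- replicate 2, where Mpo had 101 CPM. In Rpl22-/- replicates 1 and 3 Mpo had 13.9 and 17.1 CPM. In Rpl22+/+ replicates 1, 2 and 3 it had 1.46, 5.78 and 20.5 CPM. Of the 7, S100a8 alone had a negative log2 fold change (-0.21). The 6 B cell markers summed to 24.6 to 28.2 against 21.2 to 23.4 CPM, and Ms4a1 was at 0 in every library. The 6 T cell markers summed to 13.1 to 16.5 against 12.8 to 15.5 CPM, with Cd3e at 0 in every library. The 6 erythroid markers with a row summed to 29.7 to 35.5 against 31.8 to 40.2 CPM, with Car1 lower in Rpl22-/- HSCs, and the 5 macrophage markers to 14.7 to 25.8 against 16.5 to 20.5 CPM. The part of these markers in the light chain values was not tested. In bulk RNA, fewer cells of a type and less RNA per cell cannot be told apart.

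Cytoplasmic dynein is the motor that carries cargo toward the minus ends of microtubules and helps to place the mitotic spindle. Its heavy chains hold the motor, and its intermediate chains carry pairs of small light chains of 3 kinds. Dynlrb1 is the roadblock light chain, Dynlt1 and Dynlt3 are the Tctex light chains, and Dynll1 and Dynll2 are the LC8 light chains, which also bind many proteins outside the motor. In the mouse the Tctex chain Dynlt1 is encoded by several near-identical genes.

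The members differ in how far their sequences can be told apart. In GRCm38, the assembly also named mm10, all 4 Dynlt1 copies lie within 349.6 kb of chromosome 17. Dynlt1a spans chr17:6306340-6317500 on the reverse strand and overlaps Tmem181a and the lincRNA Gm26848, both on the forward strand. Dynlt1b spans chr17:6430112-6436296 on the forward strand and lies within Gm26848, on the same strand. Dynlt1c spans chr17:6601671-6609774 on the forward strand, and Dynlt1f chr17:6646602-6655900 on the reverse strand, neither overlapping another annotated gene. The other members are single genes at chr2:155236533-155250277 (Dynlrb1, forward), chrX:9654267-9663003 (Dynlt3, reverse), chr5:115297110-115300999 (Dynll1, reverse) and chr11:87979525-87987533 (Dynll2, reverse). Reads of overlapping genes on opposite strands cannot be told apart unless the counting used strand, and the strand setting is not given in the sources used here.

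The coding sequences of the 4 Dynlt1 copies, 339 bases each without the stop codon, are shown by their first 60 bases because these hold the only base at which they differ. Sequences are those of the GENCODE transcripts, written 5′ to 3′, and the capital marks the differing base.
Dynlt1a: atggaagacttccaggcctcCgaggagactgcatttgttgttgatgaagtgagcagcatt
Dynlt1b: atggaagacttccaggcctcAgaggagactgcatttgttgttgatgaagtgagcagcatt
Dynlt1c: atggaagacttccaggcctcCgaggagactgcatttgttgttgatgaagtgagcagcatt
Dynlt1f: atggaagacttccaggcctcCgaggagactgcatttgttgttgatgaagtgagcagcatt
Dynlt1b carries C21A relative to Dynlt1c, counted from the first base of the start codon, and Dynlt1a and Dynlt1f match Dynlt1c at all 339 coding bases. Dynlt1a and Dynlt3 shared 63.6% of 354 aligned coding positions.

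The LC8 pair shows the contrast, since its members share most of their coding sequence but differ along its length. Capitals mark the 9 bases of the first 60 at which Dynll1 and Dynll2 differ.
Dynll1: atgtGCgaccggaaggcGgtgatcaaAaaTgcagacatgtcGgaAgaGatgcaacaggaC
Dynll2: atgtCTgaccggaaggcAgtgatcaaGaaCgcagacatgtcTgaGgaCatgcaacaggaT
Over the 267 coding bases the pair differs at 50, an identity of 81.3%.

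Of the Dynlt1 copies, Dynlt1c and Dynlt1f had a promoter in the RefSeq table (GRCm38.p6), as did Dynlrb1, Dynlt3 and Dynll1, so that 5 of the 8 members were matched and Dynlt1a, Dynlt1b and Dynll2 were not. The stretch upstream of both annotated transcripts is shown for Dynlt1c (chr17:6601529-6601670, forward strand) and Dynlt1f (chr17:6655940-6656081, reverse strand), because their read counts had differences of opposite sign between the genotypes. Capitals mark the bases that differ.
Dynlt1c: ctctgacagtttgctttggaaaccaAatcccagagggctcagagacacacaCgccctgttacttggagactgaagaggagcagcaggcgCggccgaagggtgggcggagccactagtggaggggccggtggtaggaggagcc
Dynlt1f: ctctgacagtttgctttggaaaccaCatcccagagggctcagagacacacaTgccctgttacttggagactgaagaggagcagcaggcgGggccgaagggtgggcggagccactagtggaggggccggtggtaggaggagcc
The pair shared 139 of 142 bases (97.9%) and differed at 3.

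How much of each transcript is private was measured by cutting it into words of 50 bases and counting those found in no other annotated gene's transcripts. Dynlrb1, Dynlt3 and Dynll2 shared no word with another gene, and Dynll1 had 96.5% of 1981 words to itself. Dynlt1a had 32.3% of 3272 words to itself, Dynlt1b 16.8% of 722, Dynlt1f 6.9% of 722 and Dynlt1c 6.3% of 2540. The private words of Dynlt1b lay before the coding sequence or touched it, with none after it, whereas all 50 private words of Dynlt1f lay after it. Dynlt1c had none that touched the coding sequence. With words of 100 bases the shares rose to 49.2% for Dynlt1a, 18.0% for Dynlt1b, 14.9% for Dynlt1f and 13.5% for Dynlt1c. The length of the reads is not given in the sources used here, and reads that aligned at more than 1 place, 7.49% to 8.23% of each library, were not counted on any gene.

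**Figure D1:**
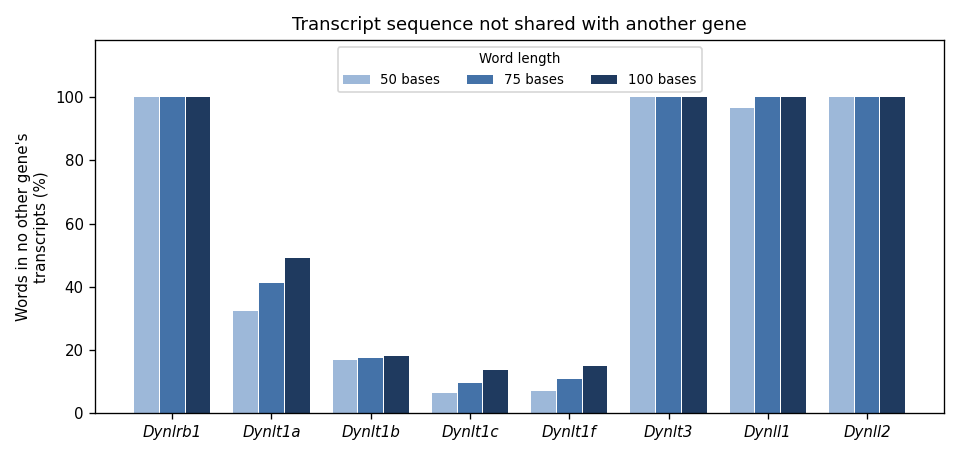
Share of words of 50, 75 and 100 bases of each member's transcript (y axis, %) that occur in no other annotated gene's transcripts. The 4 Dynlt1 copies stay at or below 49.2% at every word length, and the other members are at 96.5% or above.

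Among the members, Dynlrb1, Dynlt1a and Dynlt1b had higher levels in all 3 Rpl22-/- libraries than in any Rpl22+/+ library, with fitted differences between the genotypes of 1.65-fold, 2.05-fold and 2.50-fold, while the LC8 chains Dynll1 and Dynll2 each had a log2 fold change of -0.10. All 8 members had enough reads for a test. In the comparison over all 14004 genes tested, 3 of the 8 passed an adjusted p of 0.05, all higher in Rpl22-/- HSCs, where 5.57% of all genes passed in either direction, 3.28% higher and 2.29% lower. The genotypes did not overlap in 4 of the 8 members, beside 26.9% of all genes. Because the family was chosen by this contrast, nothing is read from these counts. The median log2 fold change of the members was 0.32, beside -0.0068 over all genes tested.

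**Figure D2:**
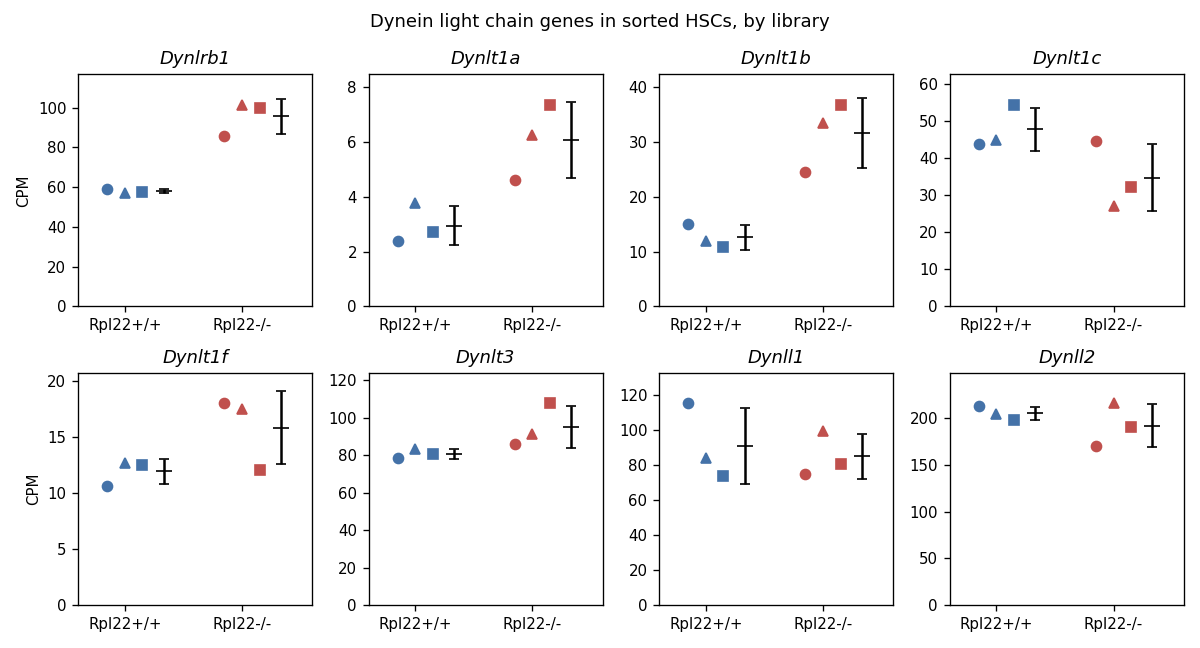
Level of each member in each library (y axis, CPM; circles, triangles and squares are replicates 1, 2 and 3; black bars are the mean ± SD of 3 libraries). The Rpl22-/- libraries lie above all Rpl22+/+ libraries for Dynlrb1, Dynlt1a, Dynlt1b and Dynlt3 and overlap them for the other 4 members.

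Dynlrb1, whose dimer sits on the dynein intermediate chain, was counted 1098, 1219 and 1316 times in Rpl22-/- HSCs and 769, 710 and 555 times in Rpl22+/+ HSCs, with replicates 1, 2 and 3 in order here and below. Its level was 85.6, 101 and 99.97 CPM in the former and 59.1, 57.0 and 57.7 CPM in the latter. Every Rpl22-/- library was above every Rpl22+/+ library. The means were 95.7 ± 8.77 and 57.9 ± 1.06 CPM (SD, n = 3), which is 0.72 ± 0.091 (SE) as a log2 fold change. The fold change ranged from 0.55 to 0.80 over 16 other ways of fitting the counts.

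Dynlt1b was counted 314, 403 and 485 times in Rpl22-/- HSCs and 196, 148 and 104 times in Rpl22+/+ HSCs. This was 24.5, 33.5 and 36.8 CPM against 15.1, 11.9 and 10.8 CPM. The Rpl22-/- libraries were again all higher, with replicate 1 the lowest of them. The means of 31.6 ± 6.41 and 12.6 ± 2.20 CPM (SD, n = 3) differed by a log2 fold change of 1.32 ± 0.17 (SE), which stayed between 1.18 and 1.48 in the other fits.

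Dynlt1a, the copy with the fewest reads, had 59, 75 and 97 reads in Rpl22-/- and 31, 47 and 26 reads in Rpl22+/+ HSCs. Its level was 4.60, 6.24 and 7.37 CPM against 2.38, 3.77 and 2.71 CPM, with the genotypes apart. As a log2 fold change this was 1.03 ± 0.27 (SE), on means of 6.07 ± 1.39 and 2.95 ± 0.728 CPM (SD, n = 3). It ranged from 0.87 to 1.26 in the other fits.

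Dynlt1c, the copy with the most reads in Rpl22+/+ HSCs, had differences of the opposite sign. Its reads numbered 575, 327 and 424 without Rpl22 and 573, 560 and 524 with it. The level was 44.8, 27.2 and 32.2 CPM against 44.0, 44.9 and 54.5 CPM. The genotypes overlapped, because Rpl22-/- replicate 1 lay among the Rpl22+/+ libraries while replicates 2 and 3 lay below them. The means were 34.7 ± 9.07 and 47.8 ± 5.81 CPM (SD, n = 3), and the log2 fold change was -0.46 ± 0.15 (SE). Without Rpl22-/- replicate 1 it was -0.68, and without Rpl22-/- replicate 2 it was -0.31.

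Dynlt1f had 231, 210 and 159 reads in Rpl22-/- and 139, 158 and 120 reads in Rpl22+/+ HSCs. At 18.0, 17.5 and 12.1 CPM against 10.7, 12.7 and 12.5 CPM, Rpl22-/- replicates 1 and 2 were above the Rpl22+/+ libraries and replicate 3 was among them. The means of 15.9 ± 3.28 and 11.9 ± 1.10 CPM (SD, n = 3) gave a log2 fold change of 0.41 ± 0.17 (SE), with 0.31 to 0.57 in the other fits.

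Read together, the 4 copies differed less than they did singly. Their sum was 1179, 1015 and 1165 reads in Rpl22-/- and 939, 913 and 774 reads in Rpl22+/+ HSCs, or 91.9, 84.5 and 88.5 CPM against 72.1, 73.3 and 80.5 CPM. All Rpl22-/- libraries were above all Rpl22+/+ libraries. Fitted as a single gene, the sum had a log2 fold change of 0.23 ± 0.085 (SE), on means of 88.3 ± 3.71 and 75.3 ± 4.55 CPM (SD, n = 3), and it stayed between 0.19 and 0.28 in the other fits. Reads that matched several copies equally and were left uncounted are not in this sum.

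The division of those reads among the copies differed more than their sum. Dynlt1b held 26.6% (95% Wilson interval 24.2 to 29.2), 39.7% (36.7 to 42.7) and 41.6% (38.8 to 44.5) of the Dynlt1 reads in Rpl22-/- replicates 1, 2 and 3. In Rpl22+/+ replicates 1, 2 and 3 it held 20.9% (18.4 to 23.6), 16.2% (14.0 to 18.7) and 13.4% (11.2 to 16.0). The lowest Rpl22-/- share exceeded the highest Rpl22+/+ share. The share of Dynlt1c was 48.8% (45.9 to 51.6), 32.2% (29.4 to 35.2) and 36.4% (33.7 to 39.2) in Rpl22-/- HSCs and 61.0% (57.9 to 64.1), 61.3% (58.1 to 64.4) and 67.7% (64.3 to 70.9) in Rpl22+/+ HSCs. Here every Rpl22-/- share lay below every Rpl22+/+ share, although the CPM of Dynlt1c overlapped. Averaged over libraries, Dynlt1b went from 16.8 ± 3.76% in Rpl22+/+ to 36.0 ± 8.16% in Rpl22-/- HSCs and Dynlt1c from 63.4 ± 3.77% to 39.1 ± 8.61% (SD, n = 3). Dynlt1a held 3.94 ± 1.05% and 6.91 ± 1.71%, and Dynlt1f 15.9 ± 1.29% and 18.0 ± 3.79% (SD, n = 3; Rpl22+/+ first). There were 0.198 to 0.342 reads of Dynlt1b per read of Dynlt1c in Rpl22+/+ HSCs and 0.546, 1.23 and 1.14 in Rpl22-/- replicates 1, 2 and 3. The shares of 1 library sum to 100%, so they are not independent of each other. The intervals cover counting error only and leave out the spread between libraries. Because the family was chosen by this contrast, the shares are a description.

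**Figure D3:**
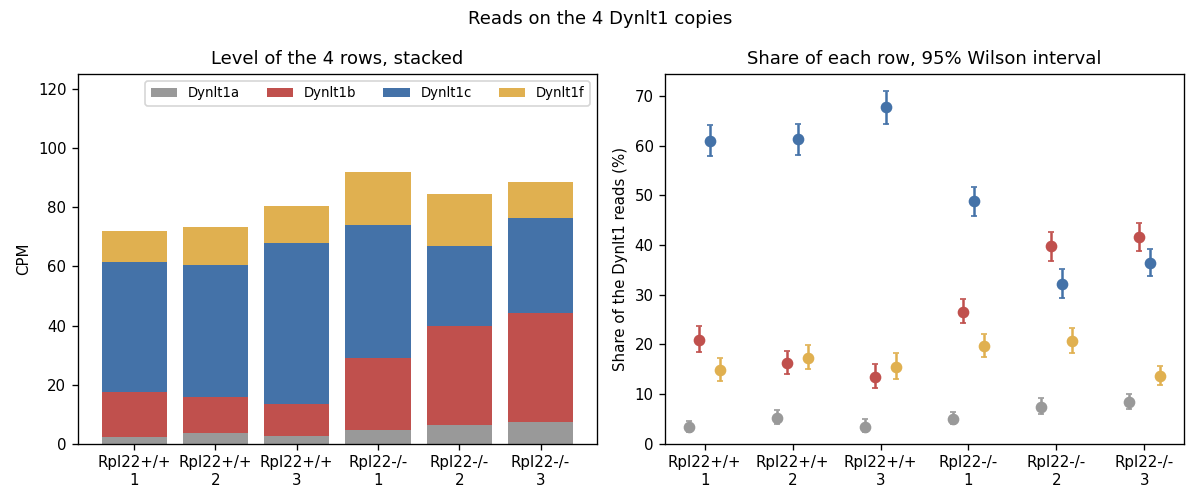
Left, level of the 4 Dynlt1 copies stacked for each library (y axis, CPM). Right, share of each copy among the Dynlt1 reads of each library (y axis, %; points with 95% Wilson intervals). The stacks reach 72.1 to 80.5 CPM in Rpl22+/+ and 84.5 to 91.9 CPM in Rpl22-/- libraries, while Dynlt1b gains share and Dynlt1c loses it.

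Dynlt3, the other Tctex light chain and a partner of the spindle checkpoint protein Bub3, had 1105, 1096 and 1415 reads in Rpl22-/- and 1019, 1040 and 772 reads in Rpl22+/+ HSCs. Its level was 86.1, 91.2 and 107 CPM against 78.3, 83.5 and 80.3 CPM, with no overlap and with Rpl22-/- replicate 3 well above the rest. The means of 94.9 ± 11.2 and 80.7 ± 2.62 CPM (SD, n = 3) differed by a log2 fold change of 0.23 ± 0.094 (SE). It was 0.40 when each library's trend on GC content was removed, 0.30 without Rpl22-/- replicate 1 and 0.14 without Rpl22-/- replicate 3.

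The LC8 light chains overlapped between the genotypes. Dynll1 had 963, 1196 and 1060 reads in Rpl22-/- and 1501, 1045 and 707 reads in Rpl22+/+ HSCs, or 75.1, 99.5 and 80.5 CPM against 115, 83.9 and 73.6 CPM. The Rpl22+/+ libraries held both its highest and its lowest level. Its log2 fold change was -0.10 ± 0.14 (SE), and it was 0.11 without Rpl22+/+ replicate 1. Dynll2, the member with the most reads, had 2182, 2591 and 2502 reads against 2765, 2547 and 1905. Its level was 170.1, 216 and 190.1 CPM in Rpl22-/- and 212, 204 and 198 CPM in Rpl22+/+ HSCs, so that the Rpl22+/+ libraries fell inside the range of the Rpl22-/- libraries. The log2 fold change was -0.10 ± 0.094 (SE), on means of 192 ± 22.9 and 205 ± 7.11 CPM (SD, n = 3). Summed, the LC8 pair came to 245 to 315 CPM in Rpl22-/- and 272 to 328 CPM in Rpl22+/+ HSCs.

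The 8 members together summed to 556 ± 42.8 CPM in Rpl22-/- and 510 ± 24.4 CPM in Rpl22+/+ HSCs (SD, n = 3). The lowest Rpl22-/- total of 509 CPM lay below the highest Rpl22+/+ total of 537 CPM.

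Levels of different genes were compared per kilobase of the transcript used here, which need not be the one behind the counts. In Rpl22+/+ HSCs Dynlrb1 (84.7 ± 1.54 CPM per kb; SD, n = 3) and Dynll2 (82.8 ± 2.87) stood highest and overlapped. Dynll1 (44.8 ± 10.7) and Dynlt3 (37.1 ± 1.20) followed and also overlapped. Dynlt1c (18.5 ± 2.25), Dynlt1b (16.3 ± 2.86) and Dynlt1f (15.5 ± 1.43) came next, each overlapping the next in order, and Dynlt1a (0.889 ± 0.219) was lowest. In Rpl22-/- HSCs Dynlrb1 (140 ± 12.8 CPM per kb; SD, n = 3) stood above Dynll2 (77.5 ± 9.23) in every library. Dynlt3 (43.6 ± 5.13), Dynll1 (41.9 ± 6.33) and Dynlt1b (41.0 ± 8.31) overlapped each other in turn, above Dynlt1f (20.6 ± 4.25) and Dynlt1c (13.4 ± 3.50), which overlapped, and Dynlt1a (1.83 ± 0.419). Most of each Dynlt1 transcript is shared with another gene, so the levels per length of these 4 copies are uncertain.

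The light chains were set beside 64 companion genes, listed for their known roles and measured in the same libraries. The list holds other dynein chains, dynactin, and regulators and adaptors of dynein. It also holds partners and a regulator of the light chains, and kinesin-1, a separate motor. Of 56 genes with enough reads, 2 passed an adjusted p of 0.05, both lower in Rpl22-/- HSCs, a share of 3.57% beside 5.57% of all genes. At an unadjusted p below 0.05 there were 13, where 22.3% of all genes tested lay below it. The median log2 fold change of the 56 was -0.031, with 22 above 0 and 34 below.

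Of the heavy, intermediate and light intermediate chains of dynein-1, the 4 tested were all below 0 and none passed the test in edgeR, DESeq2 or limma-voom. The smallest p was that of Dync1li2, a light intermediate chain that links the motor to cargo adaptors, with 115 ± 10.5 CPM in Rpl22-/- and 136 ± 6.80 CPM in Rpl22+/+ HSCs (SD, n = 3), and a log2 fold change of -0.25 ± 0.089 (SE; edgeR, adjusted p = 0.11, unadjusted p = 0.0136). No other chain of the 4 had an unadjusted p below 0.05. Dynactin, the complex that makes dynein processive, had 12 of 12 subunits tested and a median log2 fold change of -0.001. None was past the test in edgeR with all libraries, the count filter and no replicate block. Capzb, the capping protein subunit that dynactin shares with other actin filaments, came nearest. Its level was 224, 289 and 249 CPM in Rpl22-/- and 196, 213 and 196 CPM in Rpl22+/+ libraries, without overlap. The log2 fold change was 0.33 ± 0.098 (SE) with an edgeR adjusted p of 0.0586, and it had the 1 unadjusted p below 0.05 among the subunits. The adjusted p was 0.0244 in DESeq2. In edgeR it was 0.0378 with a replicate block, 0.0104 without the filter and 0.0083 without Rpl22-/- replicate 1.

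The regulators and adaptors of dynein held the first of the genes that passed. Hook1, an adaptor that joins dynein and dynactin to endosomes, had 80.0, 70.2 and 76.9 CPM in Rpl22-/- replicates 1, 2 and 3 and 101, 97.0 and 93.6 CPM in Rpl22+/+ replicates 1, 2 and 3. No Rpl22-/- library reached the Rpl22+/+ range. The log2 fold change was -0.36 ± 0.086 (SE; edgeR, adjusted p = 0.0246), and 1 of 20 genes tested in this group passed (5 at an unadjusted p below 0.05, all lower in Rpl22-/- HSCs). The call was lost without any single library but Rpl22-/- replicate 1, where the fold change stayed between -0.39 and -0.31. It was also lost at -0.30 with the length trend removed and at -0.24 with the GC trend removed. With both trends removed and the replicate block it was lost at -0.20. Over all 16 alternatives its adjusted p ran from 0.00764 to 0.184. Pafah1b1, of the same group, had 242, 245 and 242 CPM in Rpl22-/- and 286, 281 and 298 CPM in Rpl22+/+ libraries. Its log2 fold change was -0.25 ± 0.080 (SE; edgeR, adjusted p = 0.08). Pafah1b1 passed in DESeq2 and in edgeR with library size alone.

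Of the listed partners of the light chains and their regulator, 1 of 6 tested passed and 3 had an unadjusted p below 0.05. Bmf, a pro-apoptotic protein of the Bcl2 family that is held by LC8, had 40, 16 and 23 reads in Rpl22-/- and 57, 79 and 63 reads in Rpl22+/+ HSCs. At 3.12, 1.33 and 1.75 CPM against 4.38, 6.34 and 6.55 CPM the genotypes did not overlap, and the log2 fold change was -1.46 ± 0.32 (SE; edgeR, adjusted p = 0.0178). It missed the threshold without Rpl22-/- replicate 2 (adjusted p = 0.0567) or 3 (0.0916) and without Rpl22+/+ replicate 2 (0.0734) or 3 (0.0781). Atmin, a transcription factor that acts on Dynll1, had a log2 fold change of 0.05 ± 0.10 (SE; adjusted p = 0.814), and Bcl2l11, the related LC8 partner Bim, -0.03 ± 0.14 (adjusted p = 0.935). Trp53bp1, the DNA repair protein 53BP1 that binds LC8, had 176, 181 and 184 CPM against 225, 216 and 197 CPM, a log2 fold change of -0.24 ± 0.083 (SE; edgeR, adjusted p = 0.0993; 0.0474 with library size alone). Bub3 had 97.6, 142 and 130.1 CPM in Rpl22-/- and 101, 98.8 and 98.7 CPM in Rpl22+/+ libraries, with Rpl22-/- replicate 1 below all the others. Its log2 fold change was 0.31 ± 0.11 (SE; edgeR, adjusted p = 0.119), and it passed without the filter (adjusted p = 0.0237) and without Rpl22-/- replicate 1 (0.45, adjusted p = 0.00343). These 4 genes were named after their values were seen.

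No gene of the remaining groups passed in edgeR, DESeq2 or limma-voom. Of 5 dynein-2 genes, the motor of cilia, Tctex1d2 had the smallest p (log2 fold change -0.31 ± 0.13, SE; edgeR, adjusted p = 0.168), and 1 had an unadjusted p below 0.05. Tctex1d2 is also a Tctex-type light chain gene. Its level was 18.5, 16.1 and 18.6 CPM in Rpl22-/- and 22.7, 21.9 and 21.3 CPM in Rpl22+/+ libraries, lower in Rpl22-/- HSCs without overlap. The other light chain genes had 3 of 7 tested, with Dnal1, a chain of ciliary dynein, at -0.52 ± 0.21 (SE; edgeR, adjusted p = 0.155) and 1 at an unadjusted p below 0.05. Dynlrb2, Tcte3, Tctex1d1 and Tctex1d4 had too few reads for a test. Of the kinesin-1 genes, which encode a motor of the opposite direction, 6 were tested, and Kif5a had the smallest p (-0.60 ± 0.27, SE; edgeR, adjusted p = 0.204; 1 at an unadjusted p below 0.05).

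**Figure D4:**
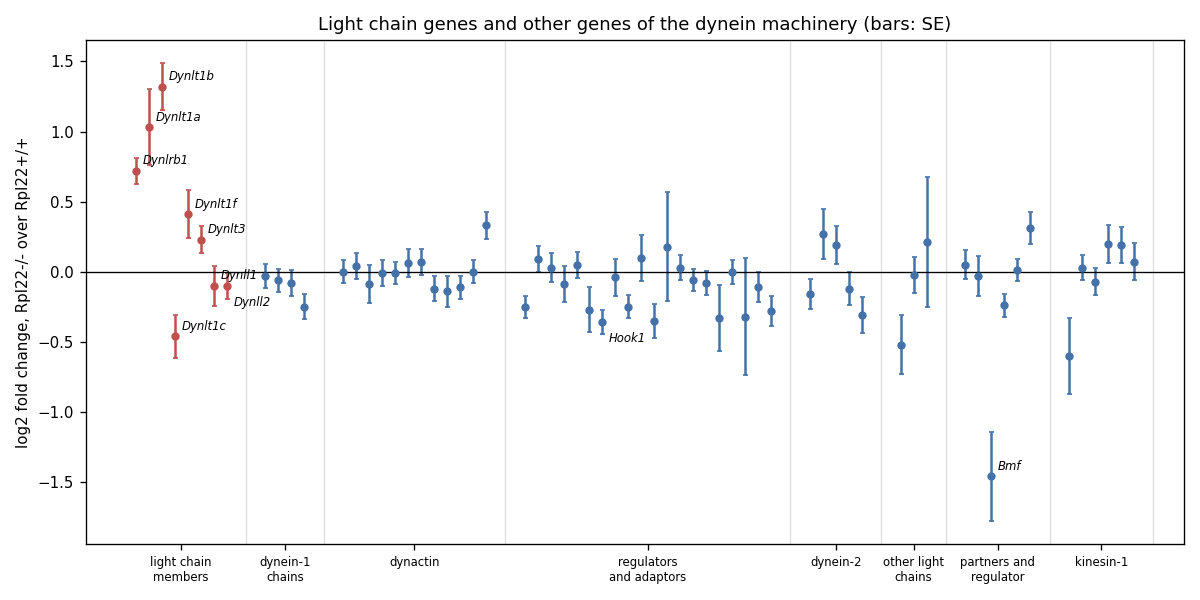
log2 fold change of Rpl22-/- over Rpl22+/+ HSCs (y axis) with its SE, in groups along the x axis. The 8 light chain members are red. The 56 companion genes tested are blue, among them light chain partners and kinesin-1 genes. The members run from -0.46 to 1.32, and the only blue points past the adjusted threshold are Hook1 at -0.36 and Bmf at -1.46.

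Position was not used to choose the members, so the genes around the Dynlt1 copies were tested. Within 500 kb of any copy the annotation has 38 other genes, of which 20 had a row in the counts and 13 had enough reads. None passed an adjusted p of 0.05 in limma-voom or in edgeR with all libraries and the count filter, and 1 passed in DESeq2. In edgeR 4 of the 13 had an unadjusted p below 0.05, all of them higher in Rpl22-/- HSCs, beside the 22.3% of all genes. The smallest p was that of Rsph3b, a radial spoke protein of cilia, at 13.6, 19.0 and 16.5 CPM in Rpl22-/- and 12.7, 8.99 and 11.7 CPM in Rpl22+/+ libraries. Its log2 fold change was 0.56 ± 0.17 (SE; edgeR, adjusted p = 0.0685; DESeq2, adjusted p = 0.0488). Without Rpl22-/- replicate 1, 4 neighbours passed, among them Gm5812, which had too few reads for a test with all libraries. The median of the 13 was -0.047, with 5 above 0 and 8 below. Tmem181a, whose end overlaps that of Dynlt1a, had a log2 fold change of -0.15 ± 0.12 (SE; edgeR, adjusted p = 0.484) where Dynlt1a had 1.03 ± 0.27.

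**Figure D5:**
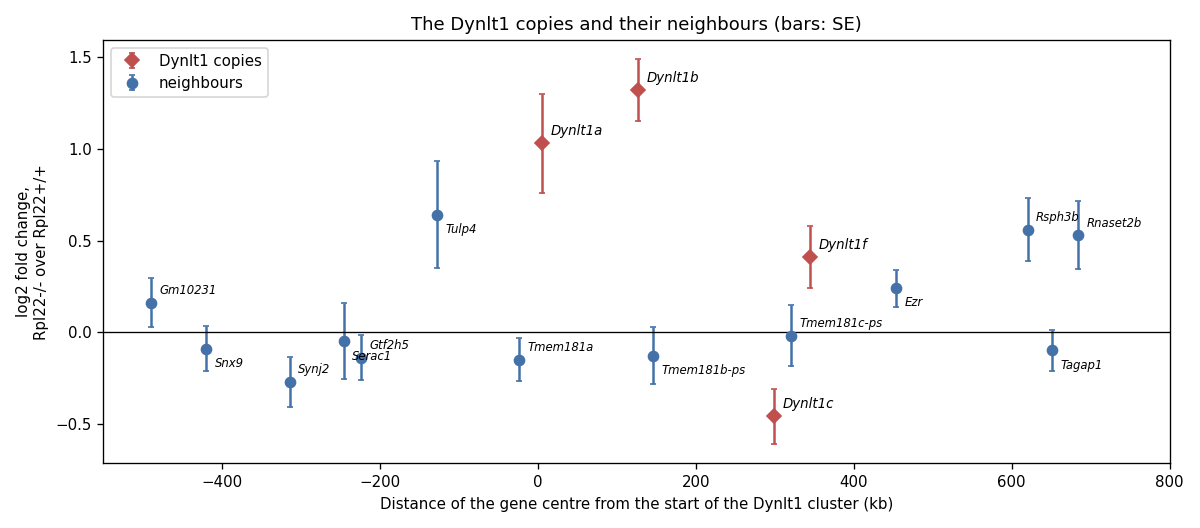
log2 fold change of Rpl22-/- over Rpl22+/+ HSCs (y axis) with its SE for the 4 Dynlt1 copies (red diamonds) and the 13 neighbours tested (blue circles), by the distance of each gene's centre from the start of the cluster (x axis, kb). Dynlt1b at 1.32 and Dynlt1c at -0.46 mark the upper and lower ends, and the neighbours lie between them.

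Reads of a member could also fall on annotated genes outside the family that share sequence with it. Of 17 other genes whose transcripts share at least 90% of 200 or more bases with a member, 8 had a row and 6 had at least 10 reads in all. The processed pseudogene Dynlt1-ps1 is identical to Dynlt1a, Dynlt1c and Dynlt1f over 342 bases and had 7 reads in all. Tmem181a and Tmem181b-ps share 321 bases with Dynlt1a at 100% and 99.1% identity, and Tmem181b-ps had a log2 fold change of -0.13 ± 0.16 (SE; edgeR, adjusted p = 0.664). 4930520O04Rik (0.02 ± 0.15, SE; adjusted p = 0.952), Fam169b (0.13 ± 0.21; adjusted p = 0.771) and Gja1 (0.21 ± 0.14; adjusted p = 0.428) did not pass in edgeR either, and Agbl2, with 14 reads, was not tested.

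The pattern of the summed Dynlt1 reads over the 6 libraries was compared with 10599 genes by the root mean square distance of centred log2 CPM, which was 0.130 for a flat line. The nearest were Blvrb (0.0211), Phf12 (0.0256), Gm15821 (0.0258), Zfp46 (0.0307) and Rai1 (0.0337). Their log2 fold changes were 0.19 to 0.26, which this choice of genes fixes.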

How the data were processed

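Poly(A)+ RNA of sorted HSCs was sequenced in 6 libraries, 3 of Rpl22-/- and 3 of Rpl22+/+ mice. Reads had been mapped by the authors to mm10 using TopHat2 2.1.1, and the deposited values are raw HTSeq counts per gene. The HTSeq version, strand setting, annotation and read length are not given in the sources used here. The table's 5 lines of unassigned reads, 58.6% to 60.9% of each library, were left out.

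Genes with too few reads were removed by filterByExpr (minimum count 10), which left 14004. Genotypes were then compared in edgeR 4.0.16 under R 4.3.3 by its quasi-likelihood test after TMM scaling, and p-values were adjusted by Benjamini-Hochberg over those genes at a threshold of 0.05. CPM use the TMM-scaled library size, and the precision of each gene rests on 3 libraries per genotype. SEs were obtained by dividing the size of each log2 fold change by the root of its F statistic. Symbols were matched to GENCODE vM21 (29042 directly, 1880 through an older symbol, 30922 of 34573 in all), and 1 transcript per member was used, the longest of those marked principal. Genes sharing sequence with a member were found with BLAST 2.17.0. Intervals of shares are 95% Wilson intervals.

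The members and lists were chosen with earlier results of these data known. Named are the 8 members, Rpl22, and genes sharing sequence with a member that had at least 10 reads in all. In each group of related genes and among the neighbours, those past the threshold or else the smallest p are named. Also named are the 5 genes nearest to the summed Dynlt1 pattern with an average log2 CPM of at least 3. Beyond this rule, Atmin, Bcl2l11, Trp53bp1, Bub3 and Pafah1b1 were named after their values were seen. The others were chosen for their role, position or marker status. Alternatives were scaling by RLE or by library size, DESeq2 1.42.0, voom in limma 3.58.1, other count filters, each library left out, a replicate block, and removal of trends on length or GC content (lowess, span 0.3). On simulated data for this comparison with 200 of 13856 genes changed, edgeR called 82% of genes changed by 1 on the log2 scale and 97% of those changed by 2, with 22 unchanged genes called.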

Additional observations from a re-analysis of the deposited data

How the results depend on the processing

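The log2 fold change of Rpl22 stayed between -3.81 and -3.65 and past the threshold in all 16 alternatives, and that of the summed Dynlt1 copies between 0.19 and 0.28. The number of genes past the threshold, 780, became 1422 without a filter, 507 with the GC trend removed and 483 with the length and GC trends removed with the replicate block, and ran from 127 (without Rpl22-/- replicate 3) to 1720 (without Rpl22-/- replicate 1) as single libraries were left out. The members past it, 3 of 8, ranged from 2 to 5 as single libraries were left out. There were 5 without Rpl22-/- replicate 1 (Dynlt1c and Dynlt3 added). Dynlt1a was past it in 1 of these 6 fits, and Dynlrb1 and Dynlt1b in all 6. Since this contrast chose the family, these counts are a description. The companion genes past it, 2, were 4 with library size alone, DESeq2 or no filter and 1 with the length trend removed, the GC trend removed, or both trends removed with the replicate block, and ranged from 0 to 4 as single libraries were left out. Of the neighbours, 1 passed in DESeq2 and 1 without a filter, beside 0, and 0 to 4 as single libraries were left out.

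Same-numbered libraries of the genotypes had correlations of -0.103, 0.055 and 0.045 in their deviations from the group means, so the numbers were not taken to pair them. With the replicate block, 904 genes, 4 members (Dynlt1c added) and 3 companion genes (Capzb added, 0.33, adjusted p = 0.0378) passed, no neighbour did, and the summed Dynlt1 copies had a log2 fold change of 0.23. No member changed sign in any alternative except Dynll1, at 0.11 without Rpl22+/+ replicate 1. Dynlrb1 was 0.61 with the length trend removed and 0.55 with both trends and the replicate block, and Dynlt3 0.40 with the GC trend removed. These shifts exceeded the pooled SD of the replicates' log2 CPM (0.098 and 0.12) but not the range of the Rpl22-/- libraries (0.25 and 0.32), and their causes were not tested. Among other named genes near 0, none past the threshold, the sign changed as single libraries were left out for Atmin (-0.02 to 0.14), Tmem181b-ps (-0.29 to 0.01), Bcl2l11 (-0.13 to 0.07), 4930520O04Rik (-0.13 to 0.17) and Fam169b (-0.03 to 0.31). It also changed for Bcl2l11 with the length trend removed (0.03) and with both trends removed and the replicate block (0.03), and for 4930520O04Rik with library size alone (-0.02). Depth limits Dynlt1a most, with 26 to 97 reads per library.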
